A study of Mus musculus with 3 samples.

Results

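The miR-23, miR-27 and miR-24 miRNAs are encoded together in a pair of short genomic clusters, the a cluster and the b cluster. The members described here were chosen by name: 10 mature miRNAs of 1915 listed in the files, all 10 of which had listed reads in B16 cells and in JB6 exosomes and 7 in B16 exosomes. Small-RNA libraries had been sequenced from 3 sources, with 1 library each and no replicate. B16 is a mouse melanoma cell line, labelled as strain C57BL/6J. Its cells gave one library and the exosomes it sheds gave another. JB6, of which only exosomes were sequenced, is given as a normal line from the skin of BALB/c mice. Exosomes are small vesicles that cells shed, collected here by ultracentrifugation. No treatment, passage or time is given by the labels for any of the groups.

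A miRNA is cut as a hairpin from a longer transcript, and either arm of the hairpin, 5p or 3p, can be loaded onto an Argonaute protein to repress messenger RNAs that match its seed, bases 2 to 8. In these clusters the 3p arms are the usual guides. miR-23 is known for repressing glutaminase, miR-27 for repressing regulators of fat-cell formation such as PPAR gamma, and miR-24 for repressing cell-cycle genes. miR-24-3p can be cut from both clusters with the same sequence. miR-3074 is annotated on the strand opposite to miR-24, so its hairpins lie over those of miR-24.

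The sequences below show which members can be told apart by a read, on which the comparison of the a and b clusters rests. They come from RefSeq (GRCm38.p6), where 9 of the 10 members were matched. Each is written 5′ to 3′ with the seed in capitals.
miR-23a-3p: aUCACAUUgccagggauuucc
miR-27a-3p: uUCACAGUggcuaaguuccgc
miR-27b-3p: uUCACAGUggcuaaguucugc
miR-24-3p: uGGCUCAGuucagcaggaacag
miR-24-2-5p: gUGCCUACugagcugaaacagu
miR-27a-5p: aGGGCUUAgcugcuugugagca
miR-27b-5p: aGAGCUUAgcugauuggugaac
miR-23b-5p: gGGUUCCUggcaugcugauuu
miR-3074-5p: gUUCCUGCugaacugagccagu

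miR-27a-3p and miR-27b-3p share the seed UCACAGU and differ by 1 base in 21, written C19U with positions counted from the 5′ end of miR-27a-3p and its base first. Compared position by position without gaps, their 5p arms differ at 8 of 22 bases, and they do not share a seed. The seed of miR-23a-3p, UCACAUU, differs from that of miR-27a-3p only by U7G. The miR-23b hairpin is shown because it carries the first 18 of the 21 bases of miR-23a-3p, in capitals, so a read cut short at its 3′ end could not be given to miR-23a-3p or miR-23b-3p.
Mir23b hairpin: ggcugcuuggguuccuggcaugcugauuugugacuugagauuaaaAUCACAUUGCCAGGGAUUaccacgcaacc

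The next pairs show the overlap on opposite strands, with the bases that are the reverse complement of the partner in capitals. miR-24-3p and miR-3074-5p pair over 20 bases, and so do miR-24-2-5p and miR-3074-2-3p.
miR-24-3p: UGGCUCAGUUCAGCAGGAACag
miR-3074-5p: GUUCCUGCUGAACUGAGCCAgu
miR-24-2-5p: GUGCCUACUGAGCUGAAACAgu
miR-3074-2-3p: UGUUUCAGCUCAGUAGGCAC

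In build GRCm38 the a cluster spans 404 bases, chr8:84208518-84208921, with Mir23a, Mir27a and Mir24-2 on the forward strand and Mir3074-2 on the reverse strand. Mir23a, Mir27a and Mir3074-2 overlap no other annotated gene, and the last 2 bases of Mir24-2 lie in an exon of the long non-coding RNA Gm26532. The b cluster spans 800 bases, chr13:63300484-63301283, with Mir23b, Mir27b and Mir24-1 on the forward strand and Mir3074-1 on the reverse strand. It lies inside the protein-coding gene 2010111I01Rik, on the forward strand, and inside Fancc, on the reverse strand. Mir23b overlaps no exon of either gene and so is intronic. All 73 bases of Mir27b lie in an exon of a transcript of 2010111I01Rik that is annotated as subject to nonsense-mediated decay. All 68 of Mir24-1 lie in an exon of a different transcript with the same annotation. Mir24-1 also overlaps exons of other transcripts in part.

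**Figure D1:**
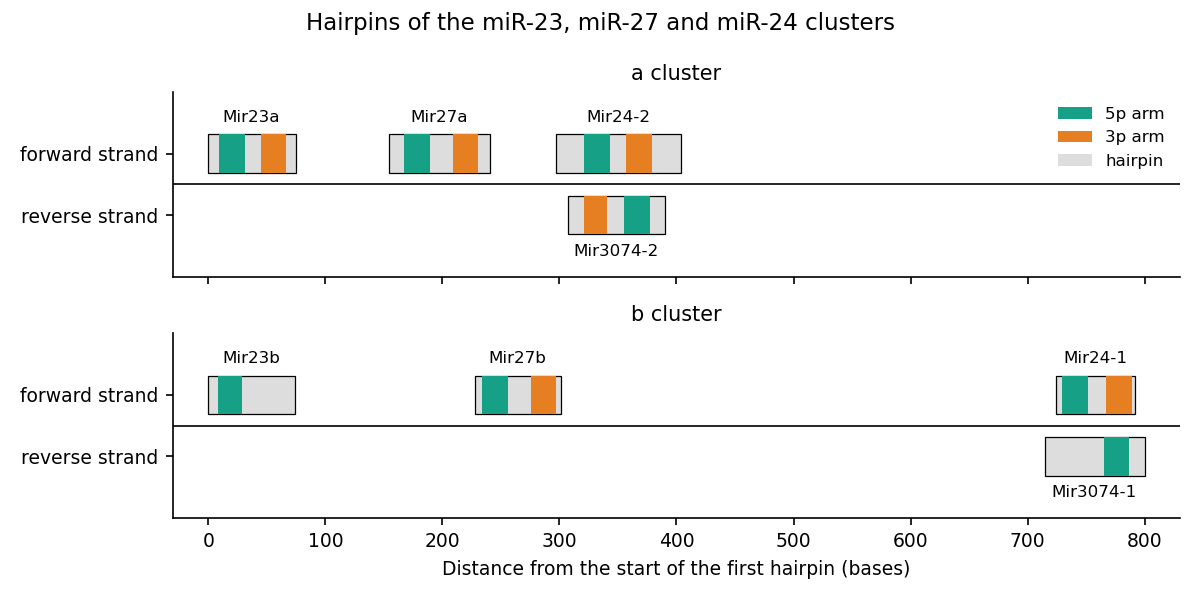
Hairpins of the a cluster (top) and the b cluster (bottom), with distance in bases from the start of the first hairpin on the horizontal axis and the strand on the vertical axis. Grey boxes are hairpins, green bars 5p arms and orange bars 3p arms. The arms miR-23b-3p and miR-3074-1-3p are not drawn. The a cluster spans 404 bases and the b cluster 800.

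The number of miRNA reads limited what could be seen in B16 exosomes. Reads assigned to mature miRNAs numbered 45677 there, against 7925726 in B16 cells and 4495956 in JB6 exosomes. Of the totals to which the authors scaled, miRNA reads made up 5.39% in B16 exosomes, 90.9% in B16 cells and 79.9% in JB6 exosomes. Levels below are RPM, reads scaled to 1000000 miRNA reads per library, with exact (Clopper-Pearson) 95% intervals in parentheses, which cover counting error only. The smallest count listed above 0 was 10 in each file, so a listed 0 stands for at most 9 reads, or 197 RPM in B16 exosomes. The labels were set against marker miRNAs. Of 3 melanocyte markers, miR-211-5p was at 2660 RPM in B16 cells and 1817 RPM in their exosomes and was listed at 0 for JB6, miR-204-5p was at 7.57 RPM in B16 cells and 3.11 RPM in JB6 exosomes and listed at 0 in B16 exosomes, and miR-137-3p was listed at 0 in all 3 libraries. Of 6 epithelial markers 2 were listed in JB6 exosomes, summing to 7.78 RPM, and 4 in B16 cells, summing to 24.9 RPM, so these markers were not higher in the library of the skin line, and none was listed in B16 exosomes. The JB6 exosome library held all 3 liver markers at a sum of 252480 RPM, all 4 red-cell markers at 14816 RPM, of which miR-486a-5p and miR-486b-5p had identical counts, and all 3 skeletal-muscle markers at 3707 RPM, against 686, 40.2 and 1.39 RPM in B16 cells and, in B16 exosomes, 963 RPM for liver and a listed 0 for each red-cell and muscle marker. Leukocyte markers summed to 814 RPM in JB6 exosomes, 3124 RPM in B16 cells and 3963 RPM in B16 exosomes, nearly all from miR-146a-5p, and endothelial markers to 407, 1234 and 876 RPM. The liver sum in JB6 exosomes was nearly all from miR-122-5p, at 251231 RPM, and the muscle sum from miR-206-3p, at 3696 RPM. Of the other liver markers, miR-192-5p was higher in JB6 exosomes than in B16 cells, at 1222 against 523 RPM. miR-194-5p was lower, at 28.2 against 110 RPM. The other muscle markers, miR-133a-3p and miR-1a-3p, were at 5.56 and 4.67 RPM in JB6 exosomes. miR-486a-5p and miR-486b-5p were each at 7339 RPM in JB6 exosomes and 19.3 RPM in B16 cells. The red-cell sums may thus count the same reads under both names. The part of these markers in the results on JB6 exosomes below was not tested. A share falls when other miRNAs take more of a library, and this cannot be told apart here from fewer copies of the miRNA itself.

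The 10 members together held 4.67% of the miRNA reads of B16 cells, 1.65% of those of B16 exosomes and 1.58% of those of JB6 exosomes. The summed share was 2.83-fold lower in B16 exosomes than in B16 cells (2.63 to 3.04) and 2.95-fold lower in JB6 exosomes than in B16 cells (2.93 to 2.97). Between the exosome libraries the ratio was 1.04 (0.968 to 1.12). Behind these sums the make-up differed. miR-24-3p led the members in B16 cells with 33.7% of their reads and in JB6 exosomes with 37.6%, and miR-27b-3p led in B16 exosomes with 33.5%.

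Of the 3p guides, miR-24-3p had 124780 reads in the cells, 186 in B16 exosomes and 26732 in those of JB6. Its level was 15744 RPM in B16 cells (15657 to 15831), 4072 RPM in B16 exosomes (3509 to 4700) and 5946 RPM in JB6 exosomes (5875 to 6017), at ranks 18, 36 and 26 among all miRNAs. It was highest in the cells, and the intervals of the 3 libraries did not overlap.

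miR-27b-3p had 94546, 252 and 16823 reads in the same order, which is 11929 RPM (11854 to 12005), 5517 RPM (4858 to 6240) and 3742 RPM (3686 to 3799). miR-27a-3p had 46452, 60 and 10559 reads, or 5861 RPM (5808 to 5914), 1314 RPM (1003 to 1691) and 2349 RPM (2304 to 2394). Both were highest in the cells, but the exosome libraries stood in opposite order: miR-27b-3p was lowest in JB6 exosomes and miR-27a-3p was lowest in B16 exosomes.

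miR-23a-3p had 28144, 110 and 949 reads, or 3551 RPM (3510 to 3593), 2408 RPM (1980 to 2902) and 211 RPM (198 to 225). miR-23b-3p had 7314, 54 and 23 reads, or 923 RPM (902 to 944), 1182 RPM (888 to 1542) and 5.12 RPM (3.24 to 7.68). Both miR-23 guides were lowest in JB6 exosomes, and the intervals of miR-23b-3p in the B16 libraries overlapped.

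Among the 5p arms of these hairpins, miR-24-2-5p had 14513, 35 and 2551 reads, which is 1831 RPM in B16 cells (1801 to 1861), 766 RPM in B16 exosomes (534 to 1066) and 567 RPM in JB6 exosomes (546 to 590), with overlapping intervals in the exosome libraries. miR-27a-5p had 10401 reads in B16 cells (1312 RPM, 1287 to 1338), a listed 0 in B16 exosomes and 911 in JB6 exosomes (203 RPM, 190 to 216). miR-27b-5p had 582 reads in B16 cells (73.4 RPM), a listed 0 in B16 exosomes and 11 reads in JB6 exosomes (2.45 RPM). miR-23b-5p had 96 reads in B16 cells (12.1 RPM, 9.81 to 14.8), a listed 0 in B16 exosomes and 106 in JB6 exosomes (23.6 RPM, 19.3 to 28.5), and was the only member whose share was higher in JB6 exosomes than in B16 cells, while with TMM factors miR-27a-3p, at a ratio of 1.02, and miR-3074-5p, at 1.30, were higher too, and with DESeq2 size factors so were miR-3074-5p, miR-24-2-5p and the 3p guides of miR-24 and miR-27, at ratios from 1.85 to 3.06. At the share that miR-27b-5p and miR-23b-5p had in the cells, the B16 exosome library would have held 3.35 and 0.553 reads, so their listed 0 there carries no comparison.

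**Figure D2:**
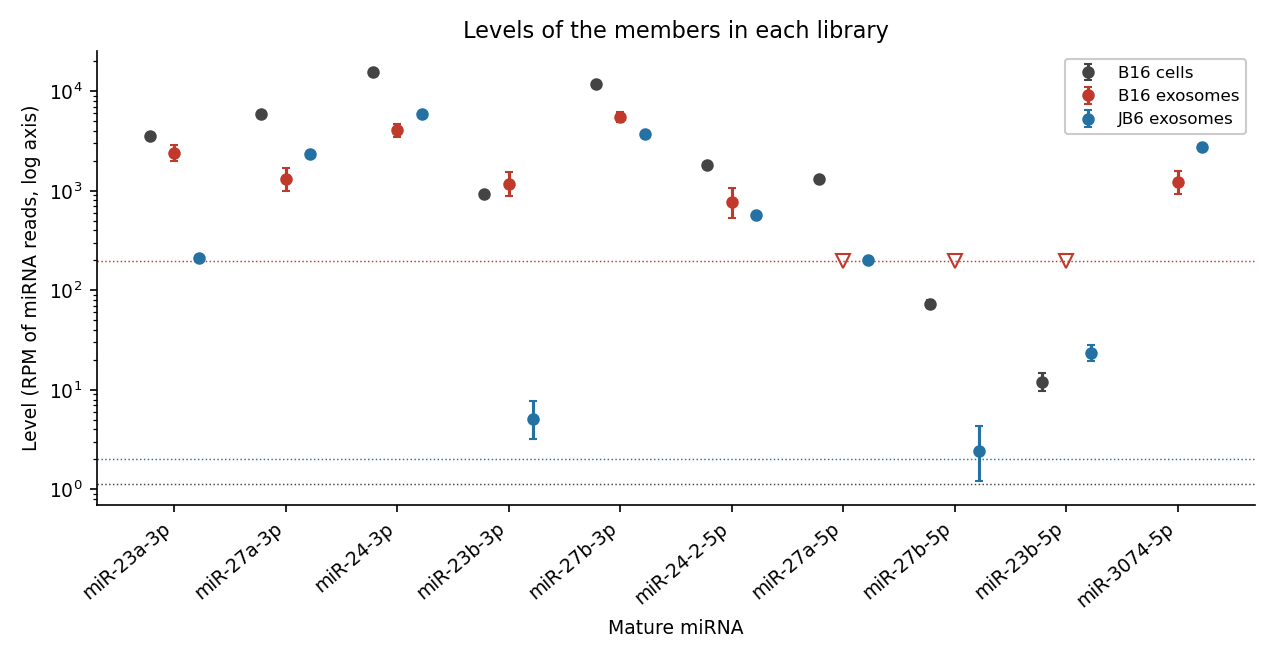
Level of each member in B16 cells, B16 exosomes and JB6 exosomes, in RPM of miRNA reads on a log axis, with 95% counting intervals. Dotted lines mark 9 reads in each library (197 RPM in B16 exosomes), and open triangles are members listed at 0. miR-23a-3p and miR-23b-3p lie far lower in JB6 exosomes than in the B16 libraries.

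B16 exosomes were set against B16 cells, which asks how far these miRNAs are carried into the vesicles of the melanoma line. The miR-24 and miR-27 guides were under-represented in the vesicles, whereas the miR-23 guides were not past the size rule. The size rule for a call, higher or lower, was a 2-fold difference in share with a counting interval that excluded 1. miR-27a-3p was 4.46-fold lower in the exosomes (3.47 to 5.85), miR-24-3p 3.87-fold lower (3.35 to 4.49) and miR-27b-3p 2.16-fold lower (1.91 to 2.46). miR-23a-3p had a ratio of 0.678 (0.557 to 0.818) and miR-23b-3p of 1.28 (0.961 to 1.67). With TMM factors these ratios were 0.335 and 0.632, and with the authors' own totals 0.0402 and 0.0760, so that the standing of the miR-23 guides against 2-fold depended on the scaling.

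Of the 10 members, 6 were called lower, none higher, 2 neither and 2 were not resolved. Over all 422 miRNAs with 30 or more reads in the pair of libraries, 7.82% were called lower and 8.53% higher, and over the 144 listed above 0 in both libraries 16% were called lower and 24.3% higher. Among those 144, miR-27a-3p had the second lowest ratio, miR-3074-5p the third and miR-24-3p the fifth, while miR-23a-3p was at place 41 and miR-23b-3p at place 91 from the lowest. The median log2 ratio of the 7 members listed in both was -1.26, beside 0.03 for all 144. miR-24-2-5p was 2.39-fold lower (1.72 to 3.43). miR-27a-5p, for which 59.9 reads would have been found at its share in the cells, was listed at 0 and so at least 6.66-fold lower, and 3.51-fold by the interval limit nearest to 1.

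B16 exosomes were also set against JB6 exosomes, which asks how vesicles of the melanoma line differ from those of the line given as normal. Line, strain and disease state differ together here and cannot be told apart. Each library enters 2 of the 3 comparisons, which are therefore not independent. Only the miR-23 guides among the members were called higher. miR-23b-3p was 231-fold higher in B16 exosomes (139 to 395), on 54 reads against 23, and miR-23a-3p was 11.4-fold higher (9.28 to 13.9). The treatment of reads that match both copies is not given, so this split is uncertain. Summed over both copies, miR-23 was 16.6-fold higher (14.0 to 19.6). The other guides lay within 2-fold: the ratio was 1.47 for miR-27b-3p (1.30 to 1.67), 0.685 for miR-24-3p (0.590 to 0.791) and 0.559 for miR-27a-3p (0.427 to 0.721). miR-24-2-5p had a ratio of 1.35 (0.939 to 1.88).

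Here 9 members had 30 or more reads, of which 2 were called higher, 1 lower, 4 neither and 2 were not resolved. Over all 300 miRNAs tested, 31.3% were called higher and 11.7% lower, and over the 131 listed above 0 in both libraries 67.2% and 13.7%. The median log2 ratio of the 7 members listed in both was 0.43, beside 2.62 for all 131, with quartiles of 0.07 and 4.96. miR-23b-3p was at place 128 of the 131 from the lowest ratio. miR-23a-3p, at place 78, lay within those quartiles, so its difference was an ordinary one for this pair. The scaling mattered in this pair: relative to shares, log2 ratios shifted by -2.37 with TMM factors, by -2.70 with DESeq2 factors and by -3.89 with the authors' totals. With each of these 6 members were called lower. miR-23b-3p was still 44.8-fold, 35.5-fold and 15.6-fold higher, but miR-23a-3p was 2.21-fold higher with TMM, had a ratio of 1.75 with DESeq2 and turned to 0.769 with the authors' totals.

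JB6 exosomes and B16 cells were the deeper pair, and they differ in cell line as well as in being vesicles or cells. miR-23b-3p was 180-fold lower in JB6 exosomes (120 to 285), miR-27b-5p 30.01-fold lower (16.6 to 60.5) and miR-23a-3p 16.8-fold lower (15.8 to 18.0). The split between the miR-23 copies is uncertain here too, and their sum was 20.7-fold lower (19.4 to 22.1). miR-27a-5p was 6.48-fold lower (6.05 to 6.94). miR-27b-3p was 3.19-fold lower (3.14 to 3.24), miR-24-2-5p 3.23-fold (3.09 to 3.37), miR-24-3p 2.65-fold (2.61 to 2.68) and miR-27a-3p 2.50-fold (2.44 to 2.55). These 8 of the 10 members were called lower and none was called higher, where 60.7% of all 501 miRNAs tested were lower and 26.1% higher, and 54.8% and 27.2% of the 305 listed above 0 in both libraries. The median log2 ratio of the 10 members was -1.68, beside -1.47 for those 305, so that as a group they were near miRNAs at large. miR-23b-5p, at a ratio of 1.95 (1.46 to 2.59), and miR-3074-5p, at 0.512 (0.502 to 0.522), were called neither. The ratio of miR-23b-5p passed the rule as higher under other scalings, at 4.96 with TMM factors, 11.6 with DESeq2 size factors and 3.09 with totals without the 10 most abundant miRNAs.

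The calls for miR-24-3p, miR-24-2-5p and the miR-27 guides depended on the scaling. With TMM factors their ratios ran from 0.789 to 1.02, and miR-24-3p and miR-27a-3p were 2.26-fold and 2.39-fold higher with DESeq2 size factors. miR-27a-5p also lost its call with DESeq2 size factors, at a ratio of 0.923. miR-23a-3p and miR-23b-3p were lower under every scaling tried, at ratios of 0.355 and 0.0331 with DESeq2, where their ratios were nearest to 1. Among the 305 miRNAs listed in both libraries, miR-23b-3p had the sixth lowest ratio.

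**Figure D3:**
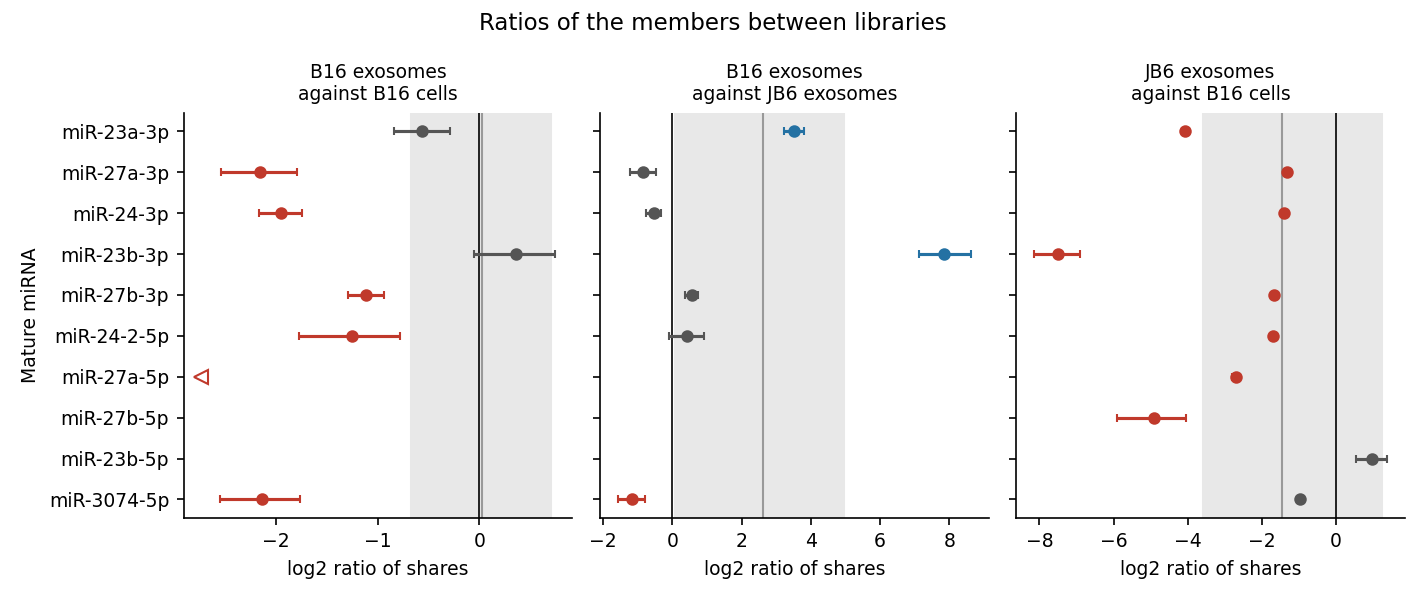
The log2 ratio of shares of each member in the 3 comparisons, with 95% counting intervals. Red points were called lower, blue higher and grey neither, and an open triangle is a bound from a listed 0. Members that were not resolved are not drawn. The grey band and line are the quartiles and median over all miRNAs listed in both libraries. miR-24, miR-27 and miR-3074-5p lie below the band in the first comparison, and the miR-23 guides lie apart from the 3p guides of miR-27 and miR-24 in each.

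Ratios within 1 library do not depend on the scaling. miR-27a-3p, of the a cluster, and miR-24-3p, which can come from either cluster, kept nearly the same balance everywhere. There were 0.372 reads of miR-27a-3p per read of miR-24-3p in B16 cells (0.368 to 0.376), 0.323 in B16 exosomes (0.237 to 0.434) and 0.395 in JB6 exosomes (0.386 to 0.404). How much of miR-24-3p came from the a cluster cannot be told from its counts. miR-23a-3p departed from both. miR-27a-3p had 1.65 reads per read of miR-23a-3p in B16 cells (1.63 to 1.68), 0.545 in B16 exosomes (0.391 to 0.754) and 11.1 in JB6 exosomes (10.4 to 11.9). miR-23a-3p thus outnumbered its neighbour only in B16 exosomes.

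The b cluster showed the same order. miR-27b-3p had 12.9 reads per read of miR-23b-3p in B16 cells (12.6 to 13.2), 4.67 in B16 exosomes (3.47 to 6.38) and 731 in JB6 exosomes (487 to 1154). Relative to their miR-27 neighbours, the miR-23 guides were 3.03-fold (2.19 to 4.22) and 2.77-fold (2.02 to 3.73) more frequent in B16 exosomes than in B16 cells in the a and b cluster. In JB6 exosomes they were 6.74-fold (6.30 to 7.22) and 56.6-fold (37.7 to 89.3) less frequent than in B16 cells. These intervals also cover counting error only.

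The a and b copies were then compared. For miR-27 the b copy led, with 2.04 reads of miR-27b-3p per read of miR-27a-3p in B16 cells (2.01 to 2.06), 4.20 in B16 exosomes (3.16 to 5.66) and 1.59 in JB6 exosomes (1.55 to 1.63). For miR-23 the a copy led, and the b copy had 0.260 reads per read of miR-23a-3p in B16 cells (0.253 to 0.267), 0.491 in B16 exosomes (0.348 to 0.686) and 0.0242 in JB6 exosomes (0.0153 to 0.0366). From B16 cells to B16 exosomes the balance moved towards the b copy in both families, by 2.06-fold for miR-27 (1.55 to 2.78) and by 1.89-fold for miR-23 (1.34 to 2.64). From B16 cells to JB6 exosomes it moved towards the a copy, by 1.28-fold for miR-27 (1.24 to 1.31) and 10.7-fold for miR-23 (7.10 to 17.0). The near-identity of the copies makes each split uncertain, since the treatment of reads that match both is not given. Summed over both copies, miR-23 was 20.7-fold lower in JB6 exosomes than in B16 cells (19.4 to 22.1) and 1.25-fold lower in B16 exosomes (1.07 to 1.46).

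The 5p arms of miR-27 differ at more bases than the 3p arms. miR-27a-5p had 17.9 reads per read of miR-27b-5p in B16 cells (16.4 to 19.5) and 82.8 in JB6 exosomes (46.1 to 166), the reverse of the order of their 3p guides. miR-24-2-5p, of the a cluster, had 14513 reads in B16 cells against 72 of miR-24-1-5p, of the b cluster. In JB6 exosomes miR-24-1-5p was listed at 0, so that miR-24-2-5p was at least 283-fold more frequent, and at least 3.89-fold in B16 exosomes. miR-23a-5p, which had 33 reads in B16 cells and 45 in JB6 exosomes, had 0.344 reads per read of miR-23b-5p in B16 cells (0.224 to 0.515) and 0.425 in JB6 exosomes (0.293 to 0.607), again opposite to the order of the 3p arms.

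Arm balance was set out hairpin by hairpin. miR-27a-5p had 22.4 reads per 100 of miR-27a-3p in B16 cells (21.9 to 22.9) and 8.63 in JB6 exosomes (8.05 to 9.23). In B16 exosomes it had at most 15 per 100, from a listed 0. At the arm balance of the cells 13.4 reads of miR-27a-5p would have been found in B16 exosomes, and at that of JB6 exosomes 5.18. Across all hairpins with both arms named, 19 had a minor arm expected above 9 reads in B16 exosomes from the balance in the cells, and in 10 of these, miR-27a among them, it was listed at 0. miR-27b-5p was scarcer beside its partner than miR-27a-5p, with 0.616 reads per 100 of miR-27b-3p in B16 cells (0.566 to 0.668) and 0.0654 in JB6 exosomes (0.0326 to 0.117).

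The 5p arm of Mir24-2 was most frequent beside its partner in B16 exosomes. miR-24-2-5p had 11.6 reads per 100 of miR-24-3p in B16 cells (11.4 to 11.8), 18.8 in B16 exosomes (12.7 to 27.1) and 9.54 in JB6 exosomes (9.16 to 9.94). The B16 exosome balance was 1.62-fold that of the cells (1.09 to 2.33). Since miR-24-3p can come from either cluster, this ratio is a lower limit for the Mir24-2 hairpin. Over the 10 hairpins with both arms listed in both B16 libraries, the minor arm was lower against its partner in B16 exosomes in 2. The median log2 change was 0.72. Only hairpins whose minor arm was listed above 0 in B16 exosomes enter this set, so minor arms that fell to a listed 0 are left out. Whether the change of miR-24-2-5p was a typical one cannot be told from them.

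By the listed counts, miR-23b-5p and miR-23b-3p stood in reverse order in JB6 exosomes. The reversal rests on 23 reads of miR-23b-3p there, beside 949 of miR-23a-3p. The treatment of reads that match both copies is not given. Summed over both copies, the 3p arms had 972 reads in JB6 exosomes, against 45 of miR-23a-5p and 106 of miR-23b-5p. miR-23b-5p had 1.31 reads per 100 of miR-23b-3p in B16 cells (1.06 to 1.61), but in JB6 exosomes it outnumbered miR-23b-3p with 4.61 reads per read (2.92 to 7.58), a change of 351-fold (210 to 600). The miR-23a hairpin changed in the same direction without reversing, from 0.117 reads of miR-23a-5p per 100 of miR-23a-3p in B16 cells (0.0807 to 0.165) to 4.74 in JB6 exosomes (3.44 to 6.40), or 40.4-fold (25.1 to 65.7). Of 63 hairpins with both arms listed in B16 cells and in JB6 exosomes, the arm that was minor in the cells gained at least 2-fold on its partner in 33 and lost at least 2-fold in 23.

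**Figure D4:**
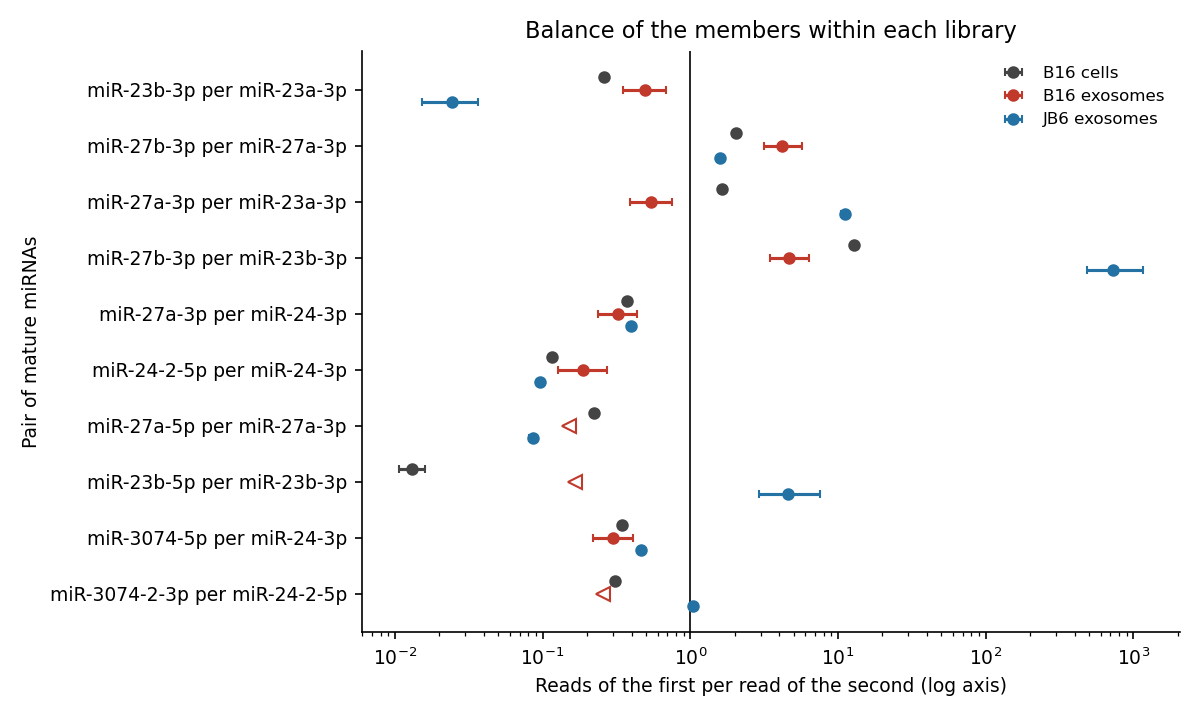
Reads of one mature miRNA per read of another within each library, on a log axis, with 95% counting intervals. Open triangles are upper bounds from a listed 0. miR-27a-3p per miR-24-3p stays between 0.323 and 0.395, while both ratios of miR-27 to miR-23 are lowest in B16 exosomes and highest in JB6 exosomes.

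miR-3074-5p, on the strand opposite to miR-24, had 42958 reads in the cells, 56 in B16 exosomes and 12471 in those of JB6. Its level was 5420 RPM (5369 to 5471), 1226 RPM (926 to 1592) and 2774 RPM (2725 to 2823), so it stood highest in the cells and lowest in B16 exosomes. It was 4.42-fold lower in B16 exosomes than in B16 cells (3.40 to 5.85) and 2.26-fold lower than in JB6 exosomes (1.74 to 2.997), and its ratio of JB6 exosomes to B16 cells was 0.512, which turned to 3.06 with DESeq2 size factors. Per read of miR-24-3p it had 0.344 reads in B16 cells (0.341 to 0.348), 0.301 in B16 exosomes (0.219 to 0.408) and 0.467 in JB6 exosomes (0.457 to 0.477). The ratios of the B16 libraries had overlapping intervals, and that of JB6 exosomes was 1.36-fold that of the cells (1.32 to 1.39). Whether counting used the strand of a read is not given, so reads of miR-24-3p and miR-3074-5p cannot be told apart with certainty.

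In the listed counts, the other arms of these opposite-strand hairpins gave a different balance. miR-3074-2-3p, which lies over miR-24-2-5p, had 4489 reads in the cells, a listed 0 in B16 exosomes and 2667 in those of JB6. Per read of miR-24-2-5p this was 0.309 in B16 cells (0.299 to 0.320) and 1.05 in JB6 exosomes (0.990 to 1.10), a 3.38-fold difference (3.17 to 3.60). In B16 exosomes it was at most 0.257. In the b cluster, miR-3074-1-3p had 75 reads in B16 cells beside 72 of miR-24-1-5p, and both were listed at 0 in the exosome libraries. In these counts the arms that name a cluster were mostly of the a cluster, for miR-3074 as for miR-24. Since miR-3074-2-3p and miR-24-2-5p pair over 20 bases and strand use is not given, their reads cannot be told apart with certainty either. The result for miR-3074 is therefore not separate from that for miR-24.

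The 4 other mature entries of these hairpins were miR-23a-5p, miR-24-1-5p, miR-3074-1-3p and miR-3074-2-3p. In B16 exosomes against B16 cells, miR-3074-2-3p was lower, by at least 2.87-fold from its listed 0, and 3 were not resolved. Of all 422 miRNAs tested there, 7.82% were called lower. Against JB6 exosomes miR-3074-2-3p was lower by at least 3.01-fold, where 11.7% of all 300 tested were lower. In JB6 exosomes against B16 cells 2 of the 4 were lower, miR-24-1-5p by at least 4.54-fold and miR-3074-1-3p by at least 4.73-fold. Of all 501 miRNAs tested there, 60.7% were called lower and 26.1% higher. The log2 bounds were -2.18 and -2.24. TMM and DESeq2 factors move the log2 ratios of this pair by 1.35 and 2.58, so both calls depend on the scaling. In the same pair miR-23a-5p was 2.40-fold higher (1.5 to 3.89), and miR-3074-2-3p had a ratio of 1.05 (0.998 to 1.10). Both ratios would be higher with those factors.

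The miRNAs most like each member were sought among the 125 others listed above 0 in all 3 libraries, by the distance between their pairs of log2 ratios (B16 exosomes against B16 cells, and against JB6 exosomes), which share the B16 exosome library. miR-22-3p was the nearest to miR-24-3p, miR-27a-3p and miR-3074-5p, at distances of 0.54, 0.62 and 0.67, with log2 ratios of -1.53 and -0.89. miR-34c-5p was the next for the same 3 members. In B16 exosomes miR-22-3p had 29 reads and miR-34c-5p 16, and the counting error of the distances was not computed. miR-328-3p was the nearest to miR-27b-3p and miR-24-2-5p, at 0.26 and 0.27. miR-340-5p was the nearest to miR-23a-3p, at 0.14, and miR-103-3p to miR-23b-3p, at 0.17. The members of 1 cluster thus had different nearest miRNAs, and miR-27a-3p shared its nearest with miR-24-3p and not with miR-23a-3p.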

How the data were processed

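Reads per mature miRNA were compared over 3 libraries, 1 per group. The deposited files give whole-number counts, which the authors did not normalize, per the file headers, and a value in RPM, whose scaling by the authors used more reads than the miRNA counts hold. Main results use the counts. Per the submitters' processing notes, bcl2fastq, BWA and the mm10 build were used. The sources used here do not give versions, the miRNA annotation, strand use or the treatment of reads with several matches. Ratios of shares of total miRNA reads were computed with exact conditional binomial 95% intervals (scipy 1.17.1), checked on simulated data. Ratios of within-library ratios have exact conditional odds-ratio intervals. Reads carried no stated molecular identifier and may repeat one molecule. With 1 library per group no test across samples was run. A listed 0 was set to 9 reads. Alternatives were edgeR 4.0.16 TMM factors, DESeq2 1.42.0 size factors, the authors' RPM, other minimums and summed entries. The text names every member, the other entries of their hairpins, marker lists and the nearest miRNAs. The members and lists were chosen with earlier results of these data known. Positions are from GENCODE M21 and RefSeq (GRCm38).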

Additional observations from a re-analysis of the deposited data

How the results depend on the processing

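Counts of members called in the comparisons with JB6 exosomes moved most with the scaling, and the low depth of B16 exosomes left 2 members unresolved against each of the other libraries. In B16 exosomes against B16 cells the number of members lower ran from 4 to 9 around the reported 6, with 6 under DESeq2 size factors, 7 with TMM factors, 9 with the authors' totals and 4 where the interval bound itself had to reach 2-fold, and none was higher under any alternative tried. In B16 exosomes against JB6 exosomes the members lower, 1 as reported, were 6 with TMM, DESeq2 or the authors' totals, 3 with totals without the 10 most abundant miRNAs, 2 with a listed 0 set to 1 read, and 0 with the 2-fold interval bound or, in an alternative chosen after seeing the data, with miR-24-3p and miR-3074-5p summed. The members higher, 2 as reported, were 1 with DESeq2, the authors' totals, a minimum of 100 reads or miR-23 and miR-27 copies summed. The ratio of miR-23a-3p turned to 0.769 with the authors' totals. In JB6 exosomes against B16 cells the members lower, 8 as reported, were 4 with TMM and 3 with DESeq2, and the members higher, 0 as reported, were 1 with TMM, 4 with DESeq2 and 1 without the most abundant miRNAs. There miR-27a-3p turned to 1.02 with TMM and 2.39 with DESeq2, and with DESeq2 miR-24-3p turned to 2.26, miR-27b-3p to 1.87 and miR-24-2-5p to 1.85. The scalings moved every log2 ratio of this pair by 1.35 (TMM), 2.58 (DESeq2) and -0.19 (authors' totals), and those of B16 exosomes against B16 cells by -1.02, -0.13 and -4.08.

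Balances within a library do not involve scaling. With a listed 0 as 1 read, the values in B16 exosomes were 0.0167 for miR-27a-5p per miR-27a-3p, 0.00397 for miR-27b-5p per miR-27b-3p and 0.0185 for miR-23b-5p per miR-23b-3p. These are not upper bounds, since a listed 0 can stand for up to 9 reads. With miR-24-3p split equally between its hairpins, miR-24-2-5p per miR-24-3p was 0.233 in the cells, 0.376 in B16 exosomes and 0.191 in those of JB6. No paired analysis was possible because each group has 1 library, and none could be left out.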
